A study of Mus musculus with 2 samples.

Results

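The levels of Dppa5a, Dppa3 and 6 genes of the oocyte's maternal protein complex were described in mouse embryonic stem (ES) cells. The 8 genes were chosen by symbol and all 8 were found among the 28592 genes of the table. The cells were E14TG2a, a single male line that lacks working Hprt and is also written E14TG2 in the labels. Both libraries came from cells held in 2i/LIF, a medium that blocks MEK and GSK3 and supplies leukaemia inhibitory factor, and so in the naive ground state. The series has 1 group of 2 replicates, made from total RNA after removal of ribosomal RNA, and no other condition to compare with. Values are FPKM, a read density corrected for transcript length and for the size of the library, given for replicate 1 and then replicate 2 or as mean ± SD (n = 2). Whether the replicates were grown apart is not stated in the labels, and their spread could be technical. No test between groups exists here, and 2 values against 2 cannot go below p = 0.333 in a two-sided exact permutation test, so differences between genes are set only against the spread of the replicates.

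The subcortical maternal complex is a set of proteins that the oocyte makes and stores beneath its surface, and mouse embryos from mothers lacking core subunits stop at early cleavage. In the mouse its known proteins include NLRP5 (MATER), OOEP (FLOPED), TLE6, KHDC3 (FILIA), PADI6 and ZBED3. KHDC3 and OOEP also act in mouse ES cells, where they help to restart stalled replication forks and guard the genome. DPPA3 (Stella, PGC7) is a maternal protein of another kind, which shields DNA methylation in the zygote and keeps the methylation cofactor UHRF1 off chromatin. DPPA5A (ESG1) is an RNA-binding protein of pluripotent cells whose KH domain is related to those of OOEP and KHDC3.

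The complex was represented in part: Ooep and Khdc3 were well above the middle of the expressed genes, Tle6 was low, Zbed3 stood at the detection limit, and Padi6 and Nlrp5 were close to 0. In bulk RNA fewer expressing cells and less RNA per cell cannot be told apart, which bears on these low levels. Detection here means 1 FPKM or more in each replicate. By that rule 5 of the 8 genes were detected, namely Dppa5a, Dppa3, Ooep, Khdc3 and Tle6, against 39.4% of all genes. Counts of detected genes in the lists below are to be read beside that share. Of the 6 genes of the complex itself, Ooep, Khdc3 and Tle6 passed. The median of the 8 means was 13.4 FPKM, and that of all genes was 0.233. Among all genes, ranked by mean, Dppa3 lay at percentile 91.4, Ooep at 90.9, Khdc3 at 86.7, Tle6 at 67.4, Zbed3 at 60.5, Padi6 at 40.6 and Nlrp5 at 38.1.

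**Figure D1:**
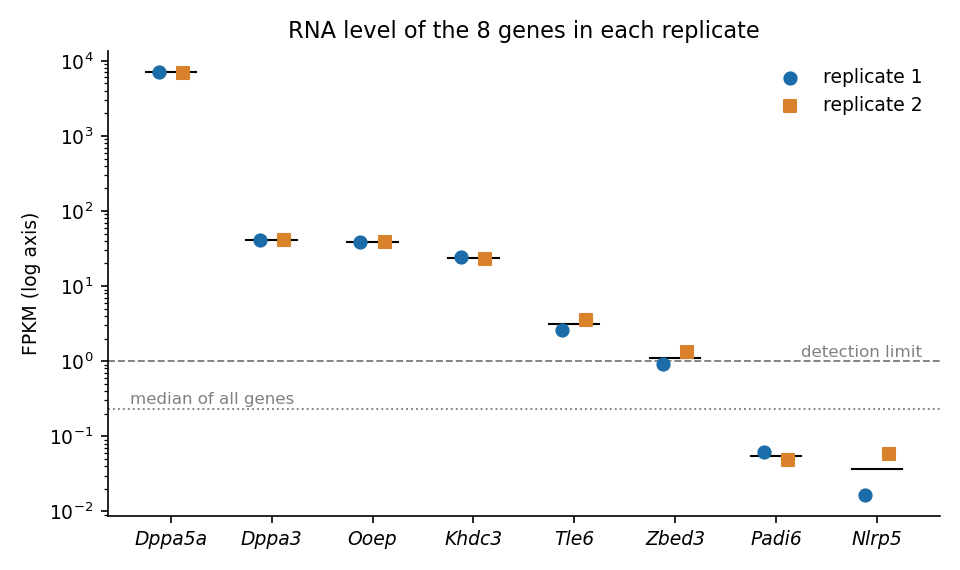
FPKM on a log axis for each of the 8 genes in replicate 1 (circles) and replicate 2 (squares), with a line at the mean, a dashed line at the detection limit of 1 FPKM and a dotted line at the median of all genes. Dppa5a stands alone at about 7048 FPKM, Dppa3, Ooep and Khdc3 lie between 22.8 and 41.7, and Padi6 and Nlrp5 lie below the median of all genes.

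Dppa5a (ENSMUSG00000060461.5; chromosome 9, 78367052 to 78368199, RefSeq on GRCm38.p6) had 7123 and 6972 FPKM. Both replicates were high and close together, and only 11 of the 28592 genes had a higher mean. It alone took 0.753% and 0.751% of the summed FPKM of the libraries. Its level was 7.23 ± 0.192 times that of Pou5f1, the central pluripotency factor, and 26.3 ± 0.541 times that of Nanog. In RefSeq 2 pseudogenes on the same chromosome, Dppa5b and Dppa5c, carry its name. Dppa5c, one of the neighbours taken below, was not matched in the table, and Dppa5b was not analysed here. How reads that fit several copies were assigned is not given in the sources used here, so part of the Dppa5a level is uncertain.

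Dppa3 (ENSMUSG00000046323.7; chromosome 6, 122626424 to 122630271) had 41.7 and 41.1 FPKM, which placed it at rank 2452 of all genes. It lay at percentile 78.2 among detected genes, whose median was 12.7 FPKM. Dppa5a exceeded it by 7.38 ± 0.0076 on the log2(FPKM + 1) scale, the widest gap between members next to each other in level. RefSeq lists a pseudogene, Dppa3-ps, on the X chromosome, which was not analysed here. Among genes that DPPA3 is known to act with or against, Uhrf1 was 6.02 ± 0.0692 times as high as Dppa3, at 249.1 and 249.6 FPKM, and the maintenance methyltransferase gene Dnmt1 was 1.84 ± 0.0189 times as high. The TET genes encode the enzymes that oxidise methylated cytosine. Tet2 was at 15.7 and 17.1 FPKM and Tet1 at 9.94 and 9.90, whereas Tet3, the form stored in the oocyte, was not detected at 0.433 and 0.195. In all, 4 of these 5 genes were detected.

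Ooep (ENSMUSG00000032346.7; chromosome 9, 78376903 to 78378588), whose product is a scaffold of the complex, had 38.9 and 38.3 FPKM. It lay just under Dppa3, by 0.10 ± 0.0023 on the log2(FPKM + 1) scale, and the replicates of the 2 genes did not overlap. Khdc3 (ENSMUSG00000092622.7; chromosome 9, 73101381 to 73106631), its KH-domain partner in the complex, had 24.6 and 22.8 FPKM. Ooep was 1.63 ± 0.0677 times as high as Khdc3, with no overlap between their replicates. Both genes were above the middle of the expressed genes, at percentiles 76.8 and 66.2 of those detected. The genes listed as those through which KHDC3 and OOEP act in ES cells were all detected, 5 of 5, against 39.4% of all genes. Parp1, which encodes a sensor of DNA breaks that KHDC3 binds, had 242 and 213 FPKM, or 9.59 ± 0.345 times Khdc3. Trp53 had 43.0 and 41.5, the checkpoint kinase gene Chek2 had 34.9 and 36.8, the helicase gene Blm had 18.0 and 19.8, and the ubiquitin ligase gene Trim25 had 9.35 and 9.42.

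Tle6 (ENSMUSG00000034758.11; chromosome 10, 81590904 to 81601185), a Groucho-type co-repressor that joins the complex in oocytes, had 2.61 and 3.58 FPKM. It passed the detection limit but lay at percentile 17.3 of the detected genes. It was lower than Khdc3 by 7.90-fold on average, 9.42-fold in replicate 1 and 6.39-fold in replicate 2. Of the detected members it varied most between replicates, with a log2 ratio of 0.34 (replicate 2 over replicate 1, FPKM + 1). Among the 500 genes nearest to it in level, 87.4% had a smaller ratio in absolute terms, and the central 95% ran from -0.43 to 0.44. Its span overlaps those of Tle2 and Gm32024 in RefSeq, and whether strand was used in counting is not given, so reads of these genes may not be told apart. Tle2 itself was at 0.200 and 0.176 FPKM.

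Zbed3 (ENSMUSG00000041995.7; chromosome 13, 95323605 to 95337842), a zinc-finger protein that binds Axin in the Wnt pathway, had 0.924 and 1.31 FPKM. The replicates fell on either side of the limit, so it was not called detected. Its span overlaps those of Snora47, a small nucleolar RNA gene, and LOC115485922, and their share in this value was not tested. Tle6 was higher by 0.95 ± 0.055 on the log2(FPKM + 1) scale. All 5 genes of the Axin complex were detected, from Ctnnb1, the gene of beta-catenin, at 403 and 408 FPKM down to the kinase gene Gsk3b at 7.24 and 5.53. The scaffold genes Axin1 and Axin2 had 18.9 and 18.5, and 20.4 and 18.3 FPKM.

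Padi6 (ENSMUSG00000040935.11; chromosome 4, 140727355 to 140742643), a member of the peptidylarginine deiminase family needed for the fibrous lattices of the oocyte cytoplasm, had 0.0611 and 0.0488 FPKM. Nlrp5 (ENSMUSG00000015721.16; chromosome 7, 23385889 to 23441923), the gene of the large subunit MATER, had 0.0168 and 0.0573 FPKM. Their replicates overlapped, so the order of these 2 genes cannot be given. The replicate values of Padi6 stood in the ratio 1.25, within 0.01 log2 units of 5 to 4, and 66.8% of the 2288 genes under a mean of 0.1 FPKM with both values above 0 had such a ratio of whole numbers up to 8. The nearest such ratios were 2 to 7 for Nlrp5, 0.035 log2 units away, and 5 to 7 for Zbed3, 0.015 away. These 2 genes did not come within that tolerance, and Zbed3, at a mean of 1.12 FPKM, is outside the set under 0.1. How often unrelated values would come so near to such a ratio was not tested, so no meaning is given to the Padi6 match. Zbed3, the next gene above, was higher than Padi6 by 0.998 ± 0.197 on the log2(FPKM + 1) scale, and by 20.3 times in mean FPKM. The members next to each other in level thus had separate replicate values in 6 of the 7 pairs. The pairs were formed by ranking these same values, and the replicate spread could be technical, so this does not test the order.

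The stretches before the transcription starts are shown for both KH-domain subunits, which were expressed, and for both subunits near 0, because they differ in CG dinucleotides (CpG), the sites of DNA methylation in mammals. The windows come from RefSeq (GRCm38.p6) and were matched for 6 of the 8 genes, with those of Dppa5a and Dppa3 not analysed here. Each line gives the 250 bases before the start, 5′ to 3′ on the strand of the gene, with CpG in capitals. They are chr9:78378589-78378838 on the minus strand for Ooep, chr9:73102148-73102397 on the plus strand for Khdc3, chr7:23385639-23385888 on the plus strand for Nlrp5 and chr4:140742644-140742893 on the minus strand for Padi6.
Ooep: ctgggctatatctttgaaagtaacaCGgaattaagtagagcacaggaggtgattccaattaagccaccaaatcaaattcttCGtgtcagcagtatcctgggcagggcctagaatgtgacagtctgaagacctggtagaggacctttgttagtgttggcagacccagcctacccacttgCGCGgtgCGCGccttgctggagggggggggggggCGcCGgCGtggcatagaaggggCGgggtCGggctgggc
Khdc3: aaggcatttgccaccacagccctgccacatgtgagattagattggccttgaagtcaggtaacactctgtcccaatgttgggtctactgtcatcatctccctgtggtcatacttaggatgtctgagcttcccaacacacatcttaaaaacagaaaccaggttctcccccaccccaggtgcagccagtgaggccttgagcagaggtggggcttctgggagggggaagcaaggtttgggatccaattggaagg
Nlrp5: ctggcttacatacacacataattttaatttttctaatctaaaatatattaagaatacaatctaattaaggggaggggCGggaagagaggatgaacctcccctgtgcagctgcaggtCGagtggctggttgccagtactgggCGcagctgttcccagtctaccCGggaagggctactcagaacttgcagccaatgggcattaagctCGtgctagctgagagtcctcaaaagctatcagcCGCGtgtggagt
Padi6: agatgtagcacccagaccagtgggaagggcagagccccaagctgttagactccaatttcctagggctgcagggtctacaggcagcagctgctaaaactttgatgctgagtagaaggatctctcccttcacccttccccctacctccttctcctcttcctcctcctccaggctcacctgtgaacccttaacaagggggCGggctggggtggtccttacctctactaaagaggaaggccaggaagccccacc

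The Ooep stretch held 11 CpG, most of them in the part nearest the start, and the Khdc3 stretch held 0. Nlrp5 had 7 and Padi6 had 1, against a median of 6 over all 32851 RefSeq windows. Khdc3 was detected and had no CpG in this window. Nlrp5 was near 0 and had a CpG count in its outer window close to the middle of all windows. Whether CpG content bears on these levels was not tested. The other Nlrp5 window, inside the span of the gene, held 1 CpG. The Khdc3 window, like both Tle6 windows, lies inside the span that RefSeq gives the gene, so the span begins further upstream, and which start was used in these cells was not measured. Among 4407 genes whose outermost window held 0 to 2 CpG, 7.99% were detected and 2.04% were at least as high as Khdc3. Among 4866 genes with 11 to 20 CpG, the class of Ooep, 72.5% were detected, and among 2772 genes with 6 to 10 CpG, the class of Nlrp5, 48.1% were. The shares were 21.8% with 3 to 5 CpG and 71.6% with 21 or more. These classes hold only genes whose symbol occurred once and matched a window, so the 39.4% of all genes is not their common share. Tle6, at 17 CpG in the outer of its windows, and Zbed3, at 2 in its outermost window and at 13 and 5 in its other windows, lay between these genes in RNA level.

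**Figure D2:**
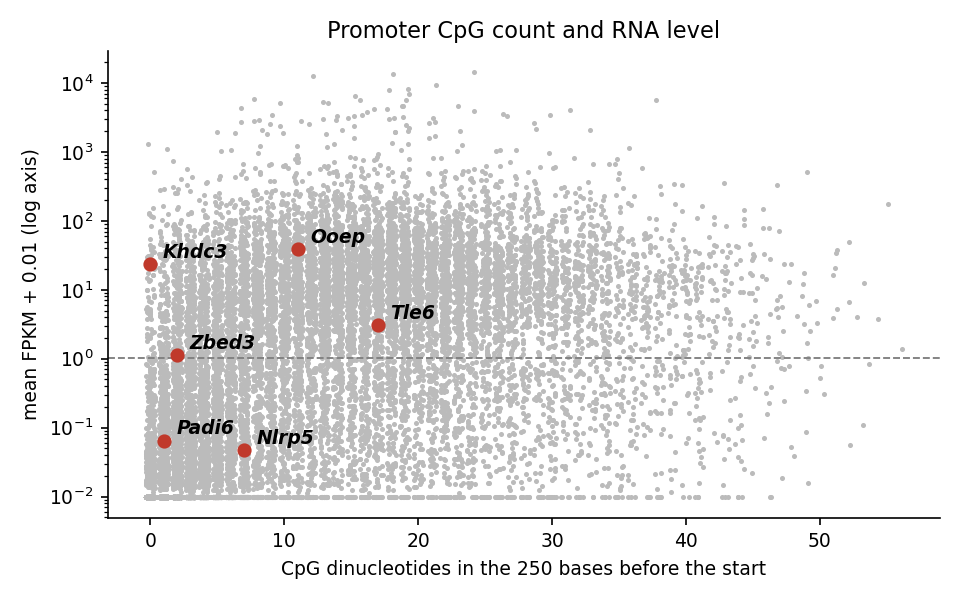
Mean FPKM + 0.01 on a log axis against the number of CpG in the 250 bases before the outermost start for which a window was used, for all genes with a window (grey, shifted sideways at random for display) and for 6 of the 8 genes (red), with the detection limit dashed. Khdc3 stands at 23.7 FPKM with 0 CpG, and Nlrp5 and Padi6 are near the bottom with 7 and 1.

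Then 3 short motifs were searched in these stretches on both strands. GGGCGG, the GC box bound by SP factors, occurred once each in the Ooep, Nlrp5 and Padi6 stretches, was absent from that of Khdc3, and was present in 32.7% of all windows. CANNTG is the E box bound by helix-loop-helix factors such as FIGLA of the oocyte, whose gene was not detected here, at 0.0471 and 0 FPKM. With overlapping matches counted separately, CANNTG occurred 5 times in the Khdc3 stretch, 2 times each in those of Nlrp5 and Padi6 and 1 time in that of Ooep. It was present in 66.2% of all windows, with a median of 1. TATAAA was found in none of the 4 and in 12.4% of all windows. The other Nlrp5 window, not shown, held 2 TATAAA. No motif is contained in another, and a match describes letters only.

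Dppa5a and Ooep are neighbours, with 8703 bases between their spans, while Khdc3 lies 5260420 bases away on the same chromosome. Around Dppa5a and Ooep 3 of the 8 matched neighbours were detected, near the share of 39.4% among all genes. Of the 6 nearest genes on one side, 4 were matched in the table and none was detected. The glutathione transferase gene Gsta2 had 0.767 and 0.602 FPKM, Gm10639 had 0.0662 and 0.166, and Omt2a and Omt2b were listed at 0 in both replicates. On the other side the helicase gene Ddx43 was low at 2.60 and 2.90, the DNA sensor gene Cgas had 0.324 and 0.343, the tRNA-modifying enzyme gene Mto1 had 12.9 and 14.01, and the elongation factor gene Eef1a1 had 13279 and 13419 FPKM. Dppa5a reached 0.528 ± 0.0119 of the level of Eef1a1, which lies about 112 kb from it. Around Khdc3, 6 of the 8 matched neighbours were detected, against 39.4% of all genes. Among them were Rsl24d1, a ribosome assembly gene, at 140 and 145 FPKM and Rab27a, a vesicle transport gene, at 1.78 and 1.96. Gm27211 was listed at 0 in both replicates, and Unc13c, a synaptic gene, had 0.00404 and 0.00403.

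**Figure D3:**
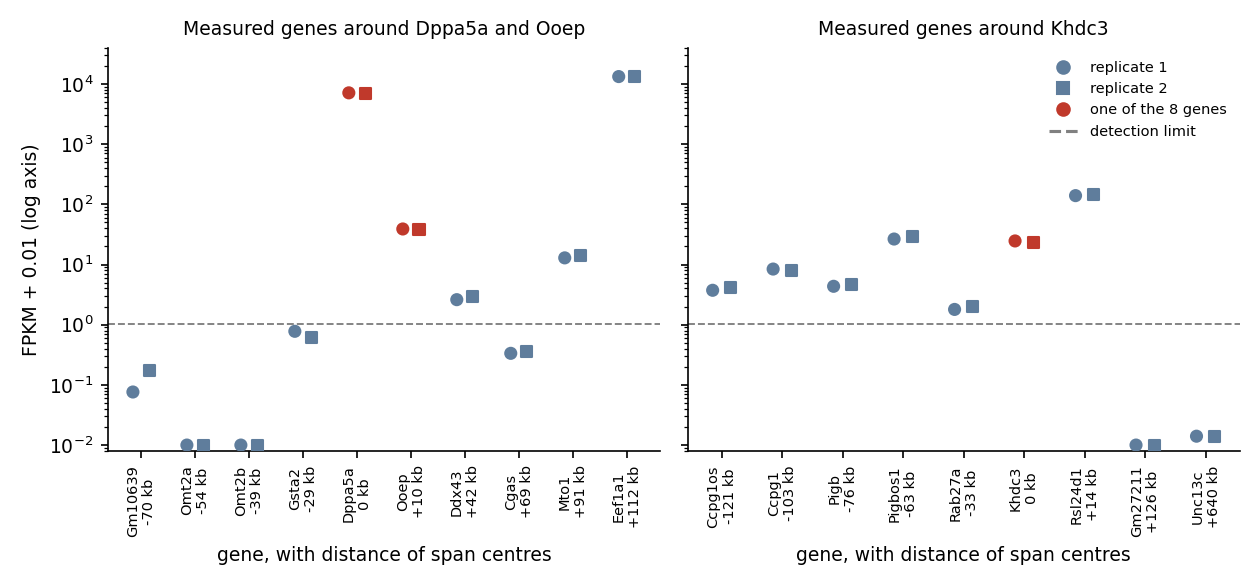
FPKM + 0.01 on a log axis in replicate 1 (circles) and replicate 2 (squares) for the genes matched in the table around Dppa5a and Ooep (left) and around Khdc3 (right), in chromosomal order with the distance of their span centres in kilobases. The 4 genes left of Dppa5a lie below the detection limit of 1 FPKM, and Eef1a1 at the right edge of the left panel is higher than Dppa5a.

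Of the 6 KH-domain genes of this type, Dppa5a, Ooep and Khdc3 were detected and the other 3 were not, with Khdc1a at 0.379 and 0.321, Khdc1c at 0.194 and 0.164 and Khdc1b at 0.0128 and 0.0256 FPKM. In the Dppa family, which shares a naming history and not a fold, Dppa4 had 58.6 and 58.0 and Dppa2 had 10.6 and 11.7. These encode a pair of DNA-binding proteins of pluripotent cells. Dppa3 lay between them, and Dppa1 was at 0.152 in replicate 1 and listed at 0 in replicate 2.

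Of 6 measured Groucho genes 5 were detected, and Tle6 was the lowest of these. The short family member Aes had 67.0 and 56.9 FPKM, Tle4 had 12.2 and 11.7, Tle3 had 8.72 and 7.16 and Tle1 had 5.54 and 6.19. Zbed3 was the lowest of the 4 Zbed genes and the one not detected. Zbed5 had 83.7 and 69.8 FPKM, Zbed4 had 17.4 and 17.3, and Zbed6 had 3.897 and 3.978, though it lies within the span of Zc3h11a. All Padi genes were low. Padi4, which citrullinates histones, was the only one of 5 called detected, at 1.16 and 1.03, with Padi2 at 1.11 and 0.941 and Padi3 at 0.662 and 0.588. Padi4 was 20.01 ± 1.44 times as high as Padi6.

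Among 12 measured Nlrp genes of the type expressed in oocytes, 3 were detected and Nlrp5 was not one of them. Nlrp4a had 4.79 and 4.47 FPKM, Nlrp4f had 4.11 and 4.12 and Nlrp9c had 1.39 and 1.47, while Nlrp14 was at 1.03 and 0.845. Nlrp2, another oocyte gene of this family, and Nlrp4b were listed at 0 in both replicates. These genes are similar in sequence, so how reads were divided between them is uncertain. Of 8 Nlr genes of inflammasomes and other immune roles 1 was detected, Nlrp12, at 47.4 and 40.3 FPKM. The span of Nlrp12 overlaps 10 other RefSeq genes, among them D7Ertd143e and the microRNA genes Mir290a to Mir295, a cluster known for its activity in ES cells, so its value may hold reads of these genes and this was not tested.

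**Figure D4:**
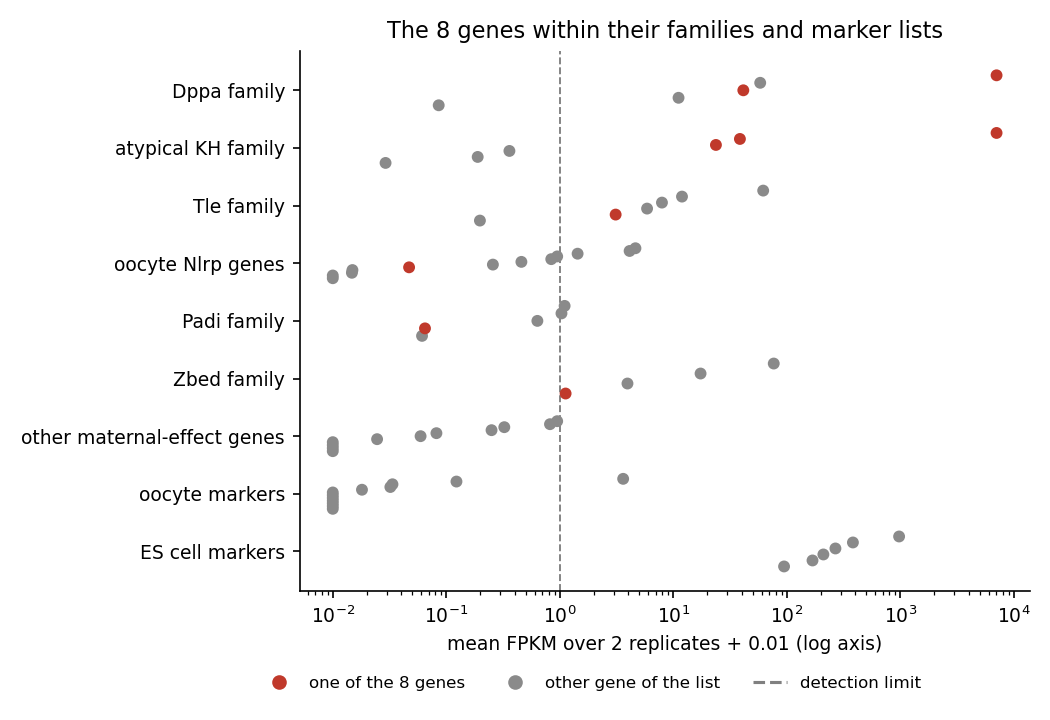
Mean FPKM + 0.01 on a log axis for the genes of 9 lists, with the 8 genes in red, other genes in grey and the detection limit dashed. Dppa5a, Ooep and Khdc3 are the detected genes of the KH list. Nlrp5 and Padi6 lie below the limit, in lists where 3 of 12 and 1 of 5 measured genes are detected.

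Other genes of the oocyte were mostly below detection. Of 11 other genes with maternal effects none was detected, with Nlrp14 and Cpeb1, a translational regulator at 0.983 and 0.637 FPKM, the highest, and Nlrp2, Zar1, Zar1l and Btg4 listed at 0 in both replicates. Of 12 measured oocyte markers 1 was detected, the zona pellucida gene Zp3, at 3.56 and 3.65. The growth factor gene Gdf9 was at 0.112 and 0.114, and 7 others, among them Bmp15, Zp2 and Nobox, were listed at 0. The summed level of the oocyte markers was 3.74 FPKM in replicate 1 and 3.81 in replicate 2. All 6 ES cell markers were detected, from Pou5f1 at 1005 and 947 down to Esrrb at 98.4 and 90.8. Of 10 marker genes of the state resembling 2-cell embryos 4 were detected, a share near that of all genes. They were Zscan4f at 6.50 and 4.67, Zscan4c at 5.11 and 4.72, Zscan4d at 2.56 and 2.53 and Gm5662 at 2.82 and 2.16. The other 6 were not detected, from Usp17le at 0.330 and 0.384 down to Tcstv1 at 0 and 0.0242. Zfp352, Tcstv3, Usp17la and Usp17lc lay between these by mean. The list had a summed level of 18.2 and 14.9. None of 9 feeder fibroblast markers was detected. Their summed level was 0.719 FPKM in replicate 1, against 3.42 in the other. Of the 9 markers 7 were higher in replicate 2. Among all 28592 genes 10541 were, and 8009 were 0 in both replicates. Tle6, Zbed3 and Nlrp5 were the 3 of the 8 genes higher in replicate 2, a share near that of all genes. Nlrp5 lay near 0 in both replicates. The log2 ratios of Tle6 and Zbed3 (replicate 2 over replicate 1, FPKM + 1) were 0.34 and 0.26. Both lay inside the central ranges of the genes nearest to them in level, -0.43 to 0.44 and -0.57 to 0.48. The part of other cells in the levels of the 8 genes was not tested.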

How the data were processed

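The authors deposited gene-level FPKM (fragments per kilobase and per size of library) in 1 table, whose 2 value columns bear the descriptions of the 2 samples. The tools named are CASAVA, TopHat2 and Cufflinks, and the builds mm10 and GRCm38, per the submitters' processing notes. Neither versions nor the annotation, strand setting or row filters are stated there. The number of reads is not known, and a value of exactly 0 may be a failed estimate. The columns summed to 946498 and 928174 FPKM.

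Gene symbols came from the Ensembl identifiers without their version, which matched for 28256 of 28592 genes. Spans and promoter windows are RefSeq's on GRCm38.p6. Differences were taken as log2(FPKM + 1), which understates those of low genes, and a gene was called detected at 1 FPKM or more in both replicates. Percentiles are the share of genes with a lower mean. Promoter letters were counted in the 250 bases before the start, and a gene's outermost window stands for it in counts over genes. On chromosome 9, 6 RefSeq genes on each side were taken and matched by symbol or by 1 unambiguous synonym. Python 3.11.15, pandas 2.3.3, numpy 2.4.6 and matplotlib 3.10.9 were used, and the procedures were tested on simulated data.

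The members and the 15 other gene lists were chosen with earlier results of these data known. All 8 members are named, and of each other list mainly the 3 highest genes, with others where a sentence on the list needs them.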

Additional observations from a re-analysis of the deposited data

How the results depend on the processing

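Of 138 values under alternative settings 102 stayed within the replicate SD, or within 1.5 times for counts, and 36 moved. The 102 include differences between members with 1 replicate left out. With so few replicates these always stay within the SD, so they are no test. The number of the 8 genes detected was 6 at limits of 0.1 and 0.5 FPKM, 4 at a limit of 5, 5 after rescaling to TPM, and 5 to 6 with 1 replicate left out, where Zbed3 made the difference. The order of the members kept its direction on every pseudocount and after rescaling to TPM. These settings cannot change which gene is higher within a replicate, so they do not test the order. Padi6 minus Nlrp5 was -0.01 to 0.06 with 1 replicate left out. With a pseudocount of 0.1 the log2 differences were 7.41 for Dppa5a minus Dppa3, 1.40 for Tle6 minus Zbed3, 2.95 for Zbed3 minus Padi6 and 0.19 for Padi6 minus Nlrp5. With 0.01 they were 7.41, 1.47, 4.10 and 0.61 in that order, with 0.0997 for Dppa3 minus Ooep and 2.95 for Khdc3 minus Tle6. A smaller pseudocount gives more weight to values near 0. Among genes at a mean of at least 0.1 FPKM the percentiles were 99.9 for Dppa5a, 84.5 for Dppa3, 83.5 for Ooep, 76.0 for Khdc3, 41.3 for Tle6 and 28.8 for Zbed3, since fewer genes were ranked, and Padi6 and Nlrp5 were left out by that filter. Leaving out 1 replicate gave percentiles of 99.958 to 99.9615 for Dppa5a, 91.42 to 91.45 for Dppa3 and 40.0 to 42.1 for Padi6.

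The limit also set the counts of low lists. At 0.1 FPKM they were 5 for the KH genes, 3 for Padi, 6 for oocyte Nlrp, 2 for inflammasome Nlr, 4 for other maternal-effect genes, 2 for oocyte markers, 7 for 2-cell-like and 3 for feeder markers. At 0.5 FPKM they were 3 for Padi, 5 for oocyte Nlrp and 2 for other maternal-effect genes. At 5 FPKM they were 0 for Padi, oocyte Nlrp, oocyte markers and 2-cell-like markers. With 1 replicate left out Padi genes gave 1 to 2 and other maternal-effect genes 0 to 1. No paired analysis was possible because the series has a single group. The depth in reads is not known, so values near 0 carry no counting interval.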
